A study of Mus musculus with 9 samples.

Results

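The rows named Gfap, Slc1a3 and Fgfr3 were examined, 3 of the 56953 genes of a count table, in RNA-sequencing libraries of laser-captured mouse cerebellum. They were chosen by name as astrocyte and Bergmann glia genes, and all 3 passed the filter on low counts. Tissue enriched with Purkinje cells, together with the tissue next to them, was captured from female mice aged 1.5 months. The 3 genotypes were wild-type (WT), heterozygous (KI/+) and homozygous (KI/KI) for the knock-in allele Kcnd3 F227del, with 3 libraries per genotype, each labelled as a biological replicate. The allele lacks 1 amino acid of the potassium channel Kv4.3 in every cell that expresses Kcnd3, and the mice were on a C57BL/6J background; WT mice carry no engineered allele. The replicate-1 libraries of the 3 genotypes stood apart from the other 6. They differed from each other by a chi-square per degree of freedom of 1.47 to 2.70 over the genes tested. From the other libraries, those of their own genotype included, they differed by 8.21 to 13.4. The other 6 differed among themselves by 1.28 to 7.89. Within these 6, KI/KI 3 differed from the rest by 4.43 to 7.89, and the rest from each other by 1.28 to 3.91. What sets the replicate-1 libraries and KI/KI 3 apart was not tested. For some rows results are also given for replicates 2 and 3 alone, which still include KI/KI 3. The question for the glial rows was whether glial signal in the captures changed with 1 or 2 mutant alleles.

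Astrocytes and Bergmann glia are the main supporting glia of the cerebellar cortex. Bergmann glia have their cell bodies beside the Purkinje cells and send fibres through the molecular layer, where they enclose Purkinje synapses and take up glutamate. Gfap encodes an intermediate filament of astrocytes and is widely used as a marker of glial reaction, Slc1a3 encodes GLAST, the glutamate transporter typical of Bergmann glia, and Fgfr3 encodes a fibroblast growth factor receptor of astrocytes. Glia adjacent to Purkinje cells are therefore part of what such a capture can hold. In bulk tissue, fewer glia and less RNA per glial cell cannot be told apart.

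None of the 3 rows passed the test for a change in any genotype. The row named Gfap was 1.14-fold higher in KI/KI than in WT mice (95% CI 1.01 to 1.28), and the row named Slc1a3 was 1.09-fold higher (95% CI 0.949 to 1.26). The row named Fgfr3 was at 0.966 of its WT level (95% CI 0.812 to 1.15). However, the counts around Gfap and Fgfr3 go against reading these rows as the RNA of the genes they are named for. For Slc1a3 the same check did not settle which RNA the row holds. It is given before the values.

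The table lists genes by Ensembl identifier only, and names were taken from GENCODE vM21, which annotates assembly GRCm38 of the mouse. In 51992 of the 52029 rows with a name, 99.93%, the identifier has a higher version number than in GENCODE vM21, so the counts were made on a later annotation. The submitters' processing notes name GRCm38 and mm10. Of 446 genes from widely expressed families (ribosomal, proteasome, respiratory chain and translation factor genes among others), 168, or 37.7%, reached a mean of 10 counts, and 76 were at 0 in all libraries. Eef1a1, a translation elongation factor of nearly every cell, had no count, and Actb, the cytoskeletal actin, had 37 counts in all 9 libraries together. Kcnd3, the targeted gene, had 104 counts in all, and the WT libraries ranged from 2.08 to 7.86 CPM (counts scaled by library size), the KI/+ libraries from 3.16 to 4.81 and the KI/KI libraries from 2.55 to 4.87. The allele lacks 1 codon, which counts per gene do not show.

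In GENCODE vM21, Gfap lies on chromosome 11 from 102887336 to 102900912 on the minus strand, with 4218 exonic bases. Slc1a3 lies on chromosome 15 from 8634124 to 8710764 on the minus strand, with 8537 exonic bases, and Fgfr3 on chromosome 5 from 33721674 to 33737068 on the plus strand, with 7158. The nearest protein-coding rows on either side were Fam187a (8489 counts) and Kif18b (329) for Gfap, Gm2310 (0) and Ranbp3l (758) for Slc1a3, and Tacc3 (167) and Letm1 (3539) for Fgfr3. Of the 10 nearest genes of the widely expressed families, the number that reached a mean of 10 counts was 6 around Gfap, 6 around Slc1a3 and 2 around Fgfr3.

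To see where the counts lie best, the gene models around each row were moved together along the chromosome, and the counts were compared with how much of each moved model fell on protein-coding exons. This scan was chosen after the values had been seen, and the row of interest was left out of its own window. Around Fgfr3 the rank correlation across genes was between -0.15 and -0.01 with the models in place, in 4 windows of 43 to 146 genes. It was highest at a displacement of 157.1 or 157.2 kb in all 4 windows, with r between 0.64 and 0.74. Around Gfap it was between -0.18 and 0.06 in place, with 53 to 197 genes, and highest between -112.45 and -108.95 kb in all 4 windows, with r between 0.52 and 0.62. Around Slc1a3 it was between 0.24 and 0.53 in place, with 19 to 65 genes, and the best displacement (-1.5, 44.35 or 34.15 kb) depended on the window, so the place of this row was not resolved. In the windows around Calb1, the Purkinje calcium-binding protein, r was between 0.37 and 0.50 in place and highest at 1.85 kb in all 4 windows. Each best r is the highest of all displacements tried, and the 4 windows of a gene are nested, so they are not independent. Away from the best displacement, the next peak had r of 0.35 to 0.48 around Gfap and 0.48 to 0.64 around Fgfr3. Around Calb1 it was 0.51 to 0.67. The genes of a window share 1 set of libraries, and these correlations are descriptions.

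**Figure D1:**
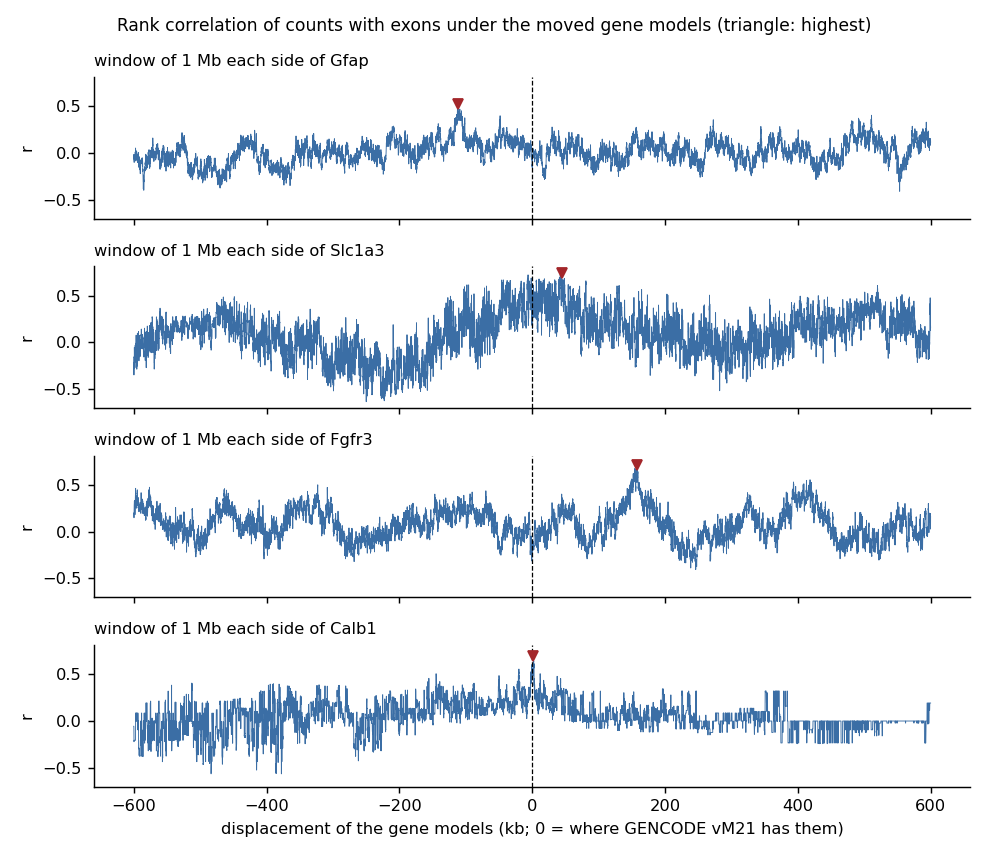
Rank correlation (r, vertical axis) between counts and the exons under the moved gene models, against the displacement in kb, for windows of 1 Mb on each side of Gfap, Slc1a3, Fgfr3 and Calb1; the dashed line is no displacement and the triangle the highest value. The peak stood at -112.45 kb for Gfap and 157.2 kb for Fgfr3, at 1.85 kb for Calb1, and on a broad rise for Slc1a3.

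At those displacements no base of the Gfap or Fgfr3 models lay on the gene's own exons. Between 1386 and 2100 of the 4218 bases of the Gfap model fell on exons of Adam11, which encodes a neuronal membrane protein, while the row named Adam11 itself held 3 counts. Between 1444 and 1631 of the 7158 bases of the Fgfr3 model fell on exons of Nsd2, a histone methyltransferase gene. Conversely, the exons of Gfap were covered in part by the row named Dcakd (269 to 607 bases), with 2547 counts, and the exons of Fgfr3 by no row. For Slc1a3, 1486 of the 8537 bases of the model lay on its own exons at -1.5 kb, 169 at 44.35 kb and none at 34.15 kb. Its row was therefore not shown to hold the RNA of its gene either. No gene was reassigned, and below each value belongs to the row of that name.

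The row named Gfap had the most counts of the 3, with 21537 over the 9 libraries. Its level after TMM normalization was 893 CPM in WT 1, 751 in WT 2 and 734 in WT 3. It was 829, 864 and 736 CPM in KI/+ 1 to 3, and 885, 955 and 874 CPM in KI/KI 1 to 3. WT 1 stood with the KI/KI libraries, above WT 2, WT 3 and KI/+ 3, so WT and KI/KI overlapped, whereas all KI/KI libraries were above all KI/+ libraries. The mean CPM was 793 ± 87.3 for WT, 809.8 ± 66.2 for KI/+ and 905 ± 43.7 for KI/KI mice (SD, n = 3).

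The row named Slc1a3 had 2835 counts in all. It stood at 119, 93.1 and 101 CPM in WT 1 to 3, at 111, 109 and 127 CPM in KI/+ 1 to 3, and at 112, 119 and 113 CPM in KI/KI 1 to 3. All 3 genotypes overlapped, and the lowest and the highest library were WT 2 and KI/+ 3. The mean CPM was 104 ± 13.3 for WT, 116 ± 10 for KI/+ and 114 ± 3.82 for KI/KI mice (SD, n = 3).

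The row named Fgfr3 had 1355 counts in all. It stood at 50.5, 60.3 and 59.2 CPM in WT 1 to 3, at 48.0, 52.9 and 47.4 CPM in KI/+ 1 to 3, and at 50.3, 51.5 and 63.5 CPM in KI/KI 1 to 3. KI/KI 3 was the highest library and the genotypes overlapped again. The mean CPM was 56.7 ± 5.32 for WT, 49.4 ± 3.00 for KI/+ and 55.1 ± 7.33 for KI/KI mice (SD, n = 3).

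**Figure D2:**
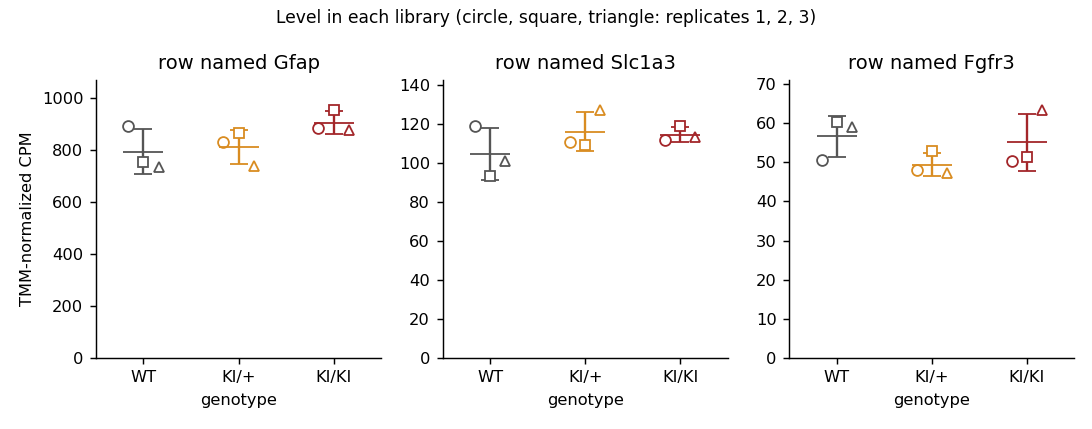
TMM-normalized CPM (vertical axis, from 0) of the rows named Gfap, Slc1a3 and Fgfr3 in each library by genotype (horizontal axis); symbols are replicates 1, 2 and 3, and bars are the mean ± SD of 3 libraries. The KI/KI libraries of Gfap sit between 874 and 955 CPM, above every KI/+ library and beside WT 1 at 893 CPM.

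A row was called changed where its fold change exceeded 1.3 at an FDR below 0.2, which are the study's criteria. In KI/KI against WT mice, 0 of the 3 rows were called by edgeR, and 1.33% of the 10842 genes tested were called. The log2 fold change was 0.19 for Gfap (SE 0.081, edgeR FDR 0.432), 0.13 for Slc1a3 (SE 0.098, FDR 0.714) and -0.05 for Fgfr3 (SE 0.12, FDR 0.937). Gfap was thus the only row of the 3 with an unadjusted p under 0.05 here, a level that 10% of all genes tested reached. The exact two-sided permutation test over the 6 libraries gave p = 0.3 for Gfap, 0.4 for Slc1a3 and 0.9 for Fgfr3, with 0.1 as the lowest p that 6 libraries can give. The upper ends of the 95% intervals for KI/KI over WT, 1.28-fold for Gfap, 1.26-fold for Slc1a3 and 1.15-fold for Fgfr3, all lay under the 1.3-fold limit. With replicates 2 and 3 alone, the log2 fold change was 0.29 for Gfap (95% CI 0.13 to 0.46, edgeR FDR 0.0855), 0.25 for Slc1a3 (95% CI 0.019 to 0.48, FDR 0.357) and -0.076 for Fgfr3 (FDR 0.886). None was called there either, but for Gfap and Slc1a3 the interval then reached past a 1.3-fold rise. Without WT 1 alone, Gfap was at 0.29 (edgeR FDR 0.0955).

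In KI/+ against WT mice, 0 of the 3 rows and 0% of all genes tested were called by edgeR, and 459 of the 10842 genes, 4.23%, had an unadjusted p under 0.05, none of the 3 rows among them. DESeq2 called 0 genes on all libraries and 1 gene, outside the 3 rows, on the 6 libraries compared. However, edgeR called 38 genes without a count filter, 33 without WT 1 and 59 with replicates 2 and 3 alone, none of the 3 rows among them. The log2 fold change was 0.03 for Gfap (SE 0.081), 0.14 for Slc1a3 (SE 0.10) and -0.19 for Fgfr3 (SE 0.13), each with an edgeR FDR of 0.998. The 95% intervals ran from 0.908 to 1.15-fold for Gfap, from 0.953 to 1.28-fold for Slc1a3 and from 0.73 to 1.05-fold for Fgfr3. For Fgfr3, a fall past the 1.3-fold limit therefore lay within the interval. With replicates 2 and 3 alone, Slc1a3 was at 0.27 (SE 0.11, edgeR FDR 0.642) and Gfap at 0.10 (FDR 0.843).

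In KI/KI against KI/+ mice, edgeR called 0 of the 3 rows, 0 of them with an unadjusted p under 0.05, beside 0.387% of all genes tested. Gfap was 0.16 higher on the log2 scale (SE 0.081, edgeR FDR 0.579), Slc1a3 differed by -0.01 (SE 0.097, FDR 0.989) and Fgfr3 was at 0.14 (SE 0.12, FDR 0.766). For Gfap the libraries of these genotypes did not overlap, with KI/KI higher, as was so for 7.17% of all genes tested, and the exact permutation p was 0.1, the smallest possible.

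A trend over 0, 1 and 2 mutant alleles was called by edgeR for 0 of the 3 rows, with 1 row (Gfap) at an unadjusted p under 0.05, and for 1.18% of all genes tested. Between 0 and 2 alleles the fitted log2 change was 0.19 for Gfap (SE 0.082, edgeR FDR 0.448), 0.13 for Slc1a3 (SE 0.098, FDR 0.724) and -0.04 for Fgfr3 (SE 0.12, FDR 0.945). Across the alternative settings the Gfap trend ran from 0.14 to 0.29, with an FDR under 0.2 in 2 of 18. By mean level, the order was WT, KI/+ and KI/KI for Gfap, WT, KI/KI and KI/+ for Slc1a3, and KI/+, KI/KI and WT for Fgfr3. Neighbours in each order did not differ beyond the spread between their libraries, except that the KI/+ and KI/KI libraries of Gfap did not overlap. The comparisons share libraries and are not independent of each other.

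Other glial rows were read from a list of 25 astrocyte and Bergmann glia genes, the 3 rows included. Of these, 12 were above the filter, and 1 was called. This was the row named Slc6a11, after the GABA transporter GAT3 of astrocytes. Whether this row holds the reads of its gene was not checked, since the scan did not cover it. The row was called lower in KI/KI mice against WT (as were 1.15% of all genes tested) and against KI/+ (as were 0.304%). It stood at 36.3, 51.1 and 51.4 CPM in WT 1 to 3, at 44.2, 41.4 and 31.1 in KI/+ 1 to 3, and at 17.9, 16.3 and 13.2 in KI/KI 1 to 3, and every KI/KI library was under every other library, as was so for 2.99% of all genes tested. For Slc6a11 the fitted log2 change was -1.52 against WT (SE 0.18, edgeR FDR 0.0012) and -1.29 against KI/+ (SE 0.18, FDR 0.0069). With replicates 2 and 3 alone, Slc6a11 was at -1.78 against WT (edgeR FDR 1.2e-04) and -1.29 against KI/+ (FDR 0.0285). The median log2 fold change of the 12 rows in KI/KI against WT was 0.11, beside 0.01 over all genes tested. Of the 12 rows, 3, Slc6a11 and Gfap among them, had an unadjusted edgeR p under 0.05 there, as did 10% of all genes tested.

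Among the other glial rows named, Kcnj10, the potassium channel Kir4.1 of glia, had means of 2852 ± 45.4, 2960 ± 75.6 and 2751 ± 77.2 CPM for WT, KI/+ and KI/KI mice (SD, n = 3). Its log2 fold change in KI/KI against WT was -0.05 (edgeR FDR 0.815). Aldh1l1, a folate enzyme used as an astrocyte marker, was at 3.03 to 10 CPM over the 9 libraries, with a log2 fold change of -0.20 (SE 0.37, FDR 0.911). The rows named Gria4 and Ptprz1, a glutamate receptor subunit and a receptor phosphatase of Bergmann glia, were not called. Gria4 had means of 3010 ± 254, 3052 ± 353 and 3508 ± 190 CPM for WT, KI/+ and KI/KI mice (SD, n = 3). Ptprz1 had means of 2486 ± 192, 2558 ± 232 and 2676 ± 165 CPM in the same order.

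The defining markers of these glia were largely missing from the table's counts. Of the 25 rows, 4 had no count in any library, namely S100b, Sox2, Gdf10 and Hopx, and 8 had a mean under 1 count per library. Slc1a2, the main astrocyte glutamate transporter, had 41 counts in all libraries together, Glul, which makes glutamine from glutamate, had 10, and Aqp4, the water channel of astrocyte endfeet, had 3. Gja1, the astrocyte gap junction protein, had 2. The same held for markers of the captured neurons, since Pcp2 had 12 counts, Gad1 had 1 and Slc1a6, the Purkinje glutamate transporter, had 0, while Calb1 had 149596 and Car8 232481. Hence the glial label of the libraries could be checked against its markers only in part, and which rows hold the RNA of their gene was not tested one by one.

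**Figure D3:**
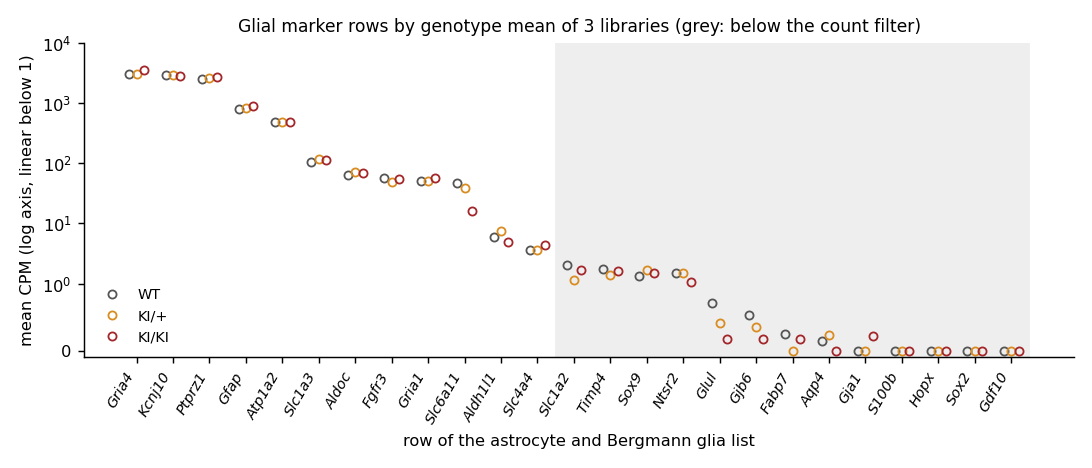
Mean CPM of 3 libraries per genotype (vertical axis, logarithmic above 1 and linear below) for the 25 rows of the astrocyte and Bergmann glia list, in order of level; grey marks the 13 rows below the count filter. Slc6a11 is the row whose KI/KI mean (15.8 CPM) stands apart from WT (46.3) and KI/+ (38.9).

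For a glial reaction, a list of 28 genes that rise in reactive astrocytes was read, Gfap among them. Only 9 rows were above the filter and 8 had no count in any library, among them Serpina3n, Steap4 and C3, which are widely used reactive markers; Lcn2 had 5 counts in all. Of the 9 rows 0 were called by edgeR in any comparison. Of all genes tested, edgeR called 1.33% in KI/KI against WT, 0% in KI/+ against WT, 0.387% in KI/KI against KI/+ and 1.18% in the trend. Finding 0 of 9 rows called does not stand apart from these shares. DESeq2 also called 0, but in KI/KI against WT it gave an adjusted p, needed for a call, to only 6 rows of the list. In KI/KI against WT, 2 of the 9 rows, Gfap among them, had an unadjusted edgeR p under 0.05, as did 10% of all genes tested. Vim, an intermediate filament of reactive glia, had means of 323 ± 30.7, 363 ± 34.4 and 316 ± 45.8 CPM for WT, KI/+ and KI/KI mice (SD, n = 3), and KI/KI and WT differed by -0.03 on the log2 scale (SE 0.10, FDR 0.956). Stat3, a transcription factor of reactive astrocytes, was at 98.4 ± 5.23, 112 ± 20.9 and 104 ± 9.45 CPM, and the cytokine gene Clcf1 at 224 ± 5.76, 216 ± 13.4 and 215 ± 21.1 CPM, in the same order. The median log2 fold change of the 9 rows was -0.02 in KI/KI against WT and -0.0011 in KI/+ against WT.

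**Figure D4:**
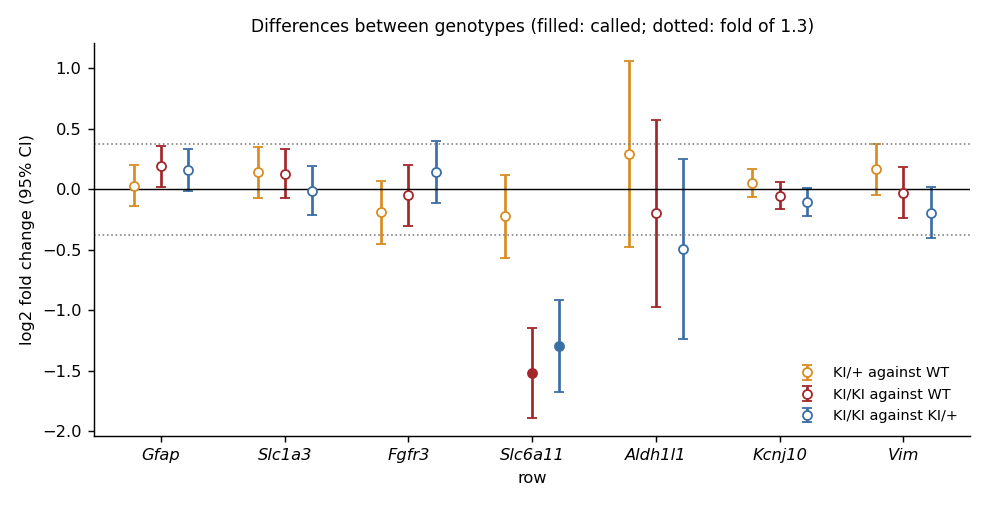
Log2 fold changes (vertical axis) with 95% confidence intervals from edgeR, fitted over 9 libraries, for the rows named Gfap, Slc1a3, Fgfr3, Slc6a11, Aldh1l1, Kcnj10 and Vim in 3 comparisons; filled symbols were called, and dotted lines mark a 1.3-fold change. The intervals of Slc6a11 for KI/KI (-1.52 against WT and -1.29 against KI/+) lie below the others.

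Microglia, the immune cells of the brain, were read beside the astrocyte genes. Of 14 rows 4 were above the filter, and 5 had no count, among them C1qa, C1qb and Trem2. The row named Cd68, a lysosomal protein of phagocytes, fell in KI/KI compared with WT mice by the same criteria, as did 1.15% of all genes tested. It stood at 134, 188 and 193 CPM in WT 1 to 3, at 148, 152 and 137 in KI/+ 1 to 3 and at 127, 123 and 132 in KI/KI 1 to 3, so that WT 1 was close to the KI/KI libraries. The log2 fold change was -0.43 (SE 0.11, edgeR FDR 0.125). The call was lost without WT 2 (FDR 0.543), without WT 3 (FDR 0.519), without any KI/KI library (FDR 0.21 to 0.298) and in the libraries labelled L1 alone (FDR 0.814), whereas with replicates 2 and 3 alone the change was -0.60 (FDR 0.0036). Itgam, Tmem119 and Ctss were not called. Their means were 6.13, 9.01 and 17.8 CPM in WT, 5.77, 13.5 and 19.3 in KI/+ and 4.92, 9.25 and 18.5 in KI/KI mice. The summed level of the 14 rows was mostly that of Cd68 and largely repeats it. This sum ranged from 172 to 229 CPM over WT, from 181 to 192 over KI/+ and from 157 to 165 over KI/KI libraries.

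Of 16 genes of glutamate transport and recycling, to which Slc1a3 belongs, 8 rows were above the filter. Both tools, edgeR and DESeq2, called 0 in any comparison, with 0 at an unadjusted edgeR p under 0.05. In KI/KI against WT, edgeR called 1.33% of all genes tested, and 10% had such a p. DESeq2 gave an adjusted p there to only 5 rows of this list. The most abundant were Slc38a3, Slc38a5 and Slc38a2, carriers of glutamine, with WT means of 499.9 ± 29.2, 359 ± 37.8 and 279 ± 17.2 CPM and KI/KI means of 508 ± 32.2, 385 ± 40.5 and 291 ± 29.9 CPM. The transporter rows Slc1a1, Slc1a4 and Slc1a6 had 9, 0 and 0 counts in all. Of 20 genes of fibroblast growth factor signalling, to which Fgfr3 belongs, 9 rows were above the filter and 0 were called by either tool. In KI/KI against WT, 1 had an unadjusted edgeR p under 0.05, and DESeq2 gave an adjusted p to only 3 rows of this list. The receptor rows Fgfr4 and Fgfr1 had WT means of 253 ± 10.6 and 69.3 ± 6.04 CPM and KI/KI means of 260 ± 4.52 and 69.99 ± 4.44 CPM, and Fgfr2 had 3 counts in all. The adaptor gene Frs2 went from a WT mean of 201 ± 9.91 CPM to a KI/KI mean of 218 ± 8.34, and Etv1, a transcription factor induced by this pathway, at 637 ± 64.6 and 749 ± 73.1 CPM. Of 14 intermediate filament and related genes, 10 were above the filter and 0 were called by either tool. In KI/KI against WT, 2 had an unadjusted edgeR p under 0.05, and DESeq2 gave an adjusted p to only 6 rows of this list. Plec, a linker of filaments, had a WT mean of 1119 ± 49.1 CPM and a KI/KI mean of 1138 ± 22.1, while Prph, a filament of peripheral and brainstem neurons, was at 143 ± 7.71 and 125 ± 2.07 CPM.

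Markers of the other cells that a capture could hold were read in the same way. Above the filter were 9 of 20 Purkinje, 6 of 12 granule cell and 4 of 10 interneuron rows. So were 5 of 14 oligodendrocyte, 4 of 10 vessel and 3 of 8 choroid plexus rows. No row of these lists was called by the main edgeR fit or by DESeq2, while edgeR called 1.33% of all genes tested in KI/KI against WT. In that comparison DESeq2 gave an adjusted p, needed for a call, to only 6, 1, 2, 3, 1 and 0 rows of these lists, in the order given. In the same order, 2, 2, 2, 1, 0 and 0 rows had an unadjusted edgeR p under 0.05 in KI/KI against WT, a level that 10% of all genes tested reached. Some rows of these lists were called without a count filter, with the replicate block or once libraries were left out, as given in the closing section. The summed level of the oligodendrocyte rows, mostly Mbp, the myelin basic protein, ranged from 2510 to 2926 CPM over WT, from 1985 to 2924 over KI/+ and from 2112 to 2803 over KI/KI libraries. Olig2, a transcription factor of the oligodendrocyte lineage, had a WT mean of 183 ± 14.8 CPM and a KI/KI mean of 236 ± 21.8. Every KI/KI library was above every WT library for Olig2, as for 7.81% of all genes tested, and the log2 fold change of 0.36 (edgeR FDR 0.091) was under the 1.3-fold limit. For Olig2 this limit was passed without WT 1 (0.39, FDR 0.0723) and without KI/KI 2 (0.44, FDR 0.0404). Of the interneuron rows, Nxph1 and Slc6a5, the glycine transporter GlyT2, had WT means of 122 ± 8.81 and 95.6 ± 17.7 CPM and KI/KI means of 95.1 ± 8.97 and 117 ± 4.22 CPM. The granule cell row Slc17a7, the vesicular glutamate transporter VGLUT1, was at 31.3 ± 5.47 and 30.9 ± 5.29 CPM, and the vessel row Flt1 at 90.8 ± 12.5 and 97.8 ± 7.33 CPM. The choroid plexus row Folr1 had means of 21.3 ± 3.17, 29.4 ± 2.60 and 24.6 ± 2.09 CPM for WT, KI/+ and KI/KI mice. The part of capture makeup in the levels of the 3 rows was not tested.

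To relate the glial rows to the Purkinje cells, each was set against a Purkinje score, the mean log2 CPM of the 9 Purkinje rows above the filter. The score was lowest in WT 3 and WT 2 (7.87 and 7.95) and between 8.07 and 8.14 in the other 7 libraries. Over the 9 libraries Pearson's r was 0.67 for Gfap (exact permutation p = 0.0446, adjusted p = 0.0904 over 3 rows), 0.65 for Slc1a3 (p = 0.0603, adjusted p = 0.0904) and -0.44 for Fgfr3 (p = 0.223 raw and adjusted). Spearman's rho was 0.48, 0.40 and -0.02, with exact permutation p of 0.194, 0.291 and 0.982. Without WT 2 and WT 3, the 2 libraries farthest from the median score, r was 0.11 for Gfap, -0.61 for Slc1a3 and 0.49 for Fgfr3 (exact permutation p = 0.804, 0.153 and 0.284). The relations thus rested on these 2 WT libraries, and the sign turned for Slc1a3 and Fgfr3. The permutations ran over the libraries without regard to genotype or replicate. Differences between genotypes and differences between captures therefore cannot be told apart in these correlations. With the summed CPM of the Purkinje list in place of the score, r was 0.37 for Gfap, 0.79 for Slc1a3 and -0.46 for Fgfr3 (exact permutation, adjusted p = 0.334, 0.037 and 0.312). In the 6 libraries labelled L1, r was 0.61, 0.80 and -0.88 for Gfap, Slc1a3 and Fgfr3 (exact permutation p = 0.238, 0.113 and 0.0611). Among themselves, the rows had r = 0.39 between Gfap and Slc1a3, -0.18 between Gfap and Fgfr3 and -0.64 between Slc1a3 and Fgfr3 over the 9 libraries.

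**Figure D5:**
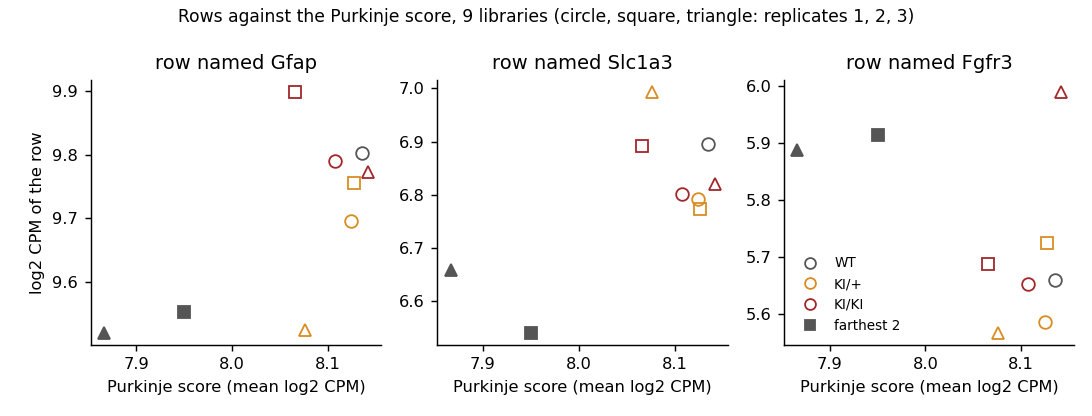
Log2 CPM of the rows named Gfap, Slc1a3 and Fgfr3 (vertical axes) against the Purkinje score (horizontal axis, mean log2 CPM of 9 Purkinje rows) in 9 libraries; colours are genotypes and symbols replicates. The filled points, WT 2 and WT 3, have scores of 7.95 and 7.87, while the other 7 libraries lie between 8.07 and 8.14.

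The Purkinje rows themselves were not called in the main fit. The row named Calb1 had means of 5271 ± 470.4, 6174 ± 302 and 6193 ± 486 CPM for WT, KI/+ and KI/KI mice (SD, n = 3), Car8, a regulator of the calcium release channel, at 8173 ± 895, 9424 ± 454 and 9738 ± 757 CPM, and Itpr1, that channel, at 2610 ± 88.5, 2886 ± 569 and 2801 ± 77.2 CPM. The calcium channel row Cacna1g was at 393 ± 11, 392 ± 15.8 and 423 ± 10.6 CPM. In WT 2 and WT 3, Calb1 was at 5092 and 4917 CPM and Car8 at 7640 and 7673 CPM, the lowest levels of the 9 libraries for both, and Gfap was at 751 and 734 CPM there. KI/+ 3, in contrast, had Gfap at 736 CPM but the highest Calb1 of the 9 libraries, 6522 CPM, and Car8 at 9946 CPM.

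Finally, the genes whose log2 CPM followed each row most closely over the 9 libraries were listed. For Gfap they were AC167245.1 (r = 0.95), Rabgap1 (0.94), Eftud2 (0.93), Zfp81 (0.93) and Ankrd26 (0.93). For Slc1a3 they were Csnk1d (0.96), Trip6 (0.93), Gm20553 (0.92), Gm47231 (0.91) and Ppp3cc (0.91). For Fgfr3 they were Bpi (0.94), Lgi3 (0.91), Gm47535 (0.91), Snrnp35 (0.90) and Cep164 (0.90). None of these 15 genes belongs to the astrocyte and Bergmann glia list, and each is the extreme of 10841 correlations over only 9 points that share library and depth.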

How the data were processed

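RNA-sequencing of laser-captured cerebellum was examined in 9 mice, 3 of each genotype. The authors prepared stranded mRNA libraries, aligned and counted the reads with Rsubread, and deposited raw counts per gene without normalization. The strand setting and annotation are not given in the sources used here, and the submitters' processing notes name GRCm38 and mm10. All 9 columns were used, and totals were 1915339 to 4032357 counts per library.

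Counts were TMM-normalized and tested with edgeR 4.0.16 (R 4.3.3) by quasi-likelihood, in 1 fit of all 9 libraries without covariates, for the 10842 genes passing edgeR's filter (minimum count 10), with Benjamini-Hochberg adjustment over all of them. Log2 CPM used a prior count of 2, and SEs come from the F statistic. Alternatives were DESeq2 1.42.0, which the study used, and the settings named in the closing section, of which replicates 2 and 3 alone was chosen after seeing the data. Gene models of GENCODE vM21 were moved in steps of 50 bp up to 600 kb each way; ranks of counts and of overlap were correlated after rank length was taken out of both. Correlations with the Purkinje score used all orderings of the libraries.

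Named were the 3 rows, 8 further glial genes, the up to 4 most abundant members of each list, list members called, the 5 genes most like each row, Kcnd3, Actb and Eef1a1, and neighbouring genes; Gapdh, also in the rule, was at 56.9 to 82.5 CPM. Markers given only as counts, Adam11, Nsd2 and Dcakd were chosen after their values were seen. The rows and gene lists were chosen with earlier results of these data known. Precision is limited by 3 libraries per genotype.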

Additional observations from a re-analysis of the deposited data

How the results depend on the processing

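The 3 rows were refitted under 234 alternatives over 4 comparisons, and the direction was kept in 223. They were called in 0, but in 5 of these, all Fgfr3 in DESeq2 outside KI/+ against WT, no adjusted p was given. For Gfap in KI/KI against WT, the log2 fold change was 0.14 to 0.29, the FDR was under 0.2 in 4 of 20 alternatives, 0.0855 at the lowest, and the fold did not pass 1.23. Leaving out 1 library gave 0.14 to 0.29 for Gfap, 0.055 to 0.24 for Slc1a3 and -0.15 to 0.012 for Fgfr3 in KI/KI against WT, and -0.021 to 0.13, 0.065 to 0.25 and -0.27 to -0.14 in KI/+ against WT. In KI/KI against KI/+ it gave 0.088 to 0.21, -0.050 to 0.049 and 0.040 to 0.20, and in the trend 0.14 to 0.29, 0.048 to 0.21 and -0.16 to 0.026. The direction turned for Slc1a3 in KI/KI against KI/+ without a count filter (0.0084), in the L1 libraries alone (0.062) and in thinned counts (0.038). Leave-one-out turned it for Fgfr3 in KI/KI against WT without KI/KI 1 (0.012) and in the trend without WT 2 (0.026) or WT 3 (0.012), for Gfap in KI/+ against WT without WT 2 (-0.0065), WT 3 (-0.021) or KI/+ 2 (-0.016), and for Slc1a3 in KI/KI against KI/+ without KI/+ 3 (0.049) or KI/KI 1 (0.0087). The cause was not tested. The labels do not say that a replicate number marks a shared origin, and 5 of 9 same-numbered pairs had deviations correlated over 0.1, so the numbers were not taken as pairs. The replicate-1 pairs were nevertheless at r = 0.20 to 0.24, and the pairs of replicates 2 and 3 at -0.02 to 0.16. With the replicate block, Gfap in KI/KI against WT was at 0.19 (FDR 0.18), and 219 genes lower and 66 higher were called, against 125 and 19 without it.

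For the relation to the Purkinje score, leaving out 1 library gave r from 0.53 to 0.80 for Gfap, past an adjusted p of 0.05 without KI/KI 2 (r = 0.80, exact permutation, adjusted p = 0.0269), 0.52 to 0.75 for Slc1a3 and -0.83 to -0.28 for Fgfr3. With the summed CPM of the Purkinje list, r rose to 0.79 for Slc1a3 (exact permutation, adjusted p = 0.037) and fell to 0.37 for Gfap (adjusted p = 0.334). Without the 2 farthest libraries, r was -0.61 for Slc1a3 and 0.49 for Fgfr3. In the lists, 1 Purkinje row, Foxp2, was called in KI/+ against WT without a count filter and without WT 1, and in KI/KI against KI/+ without a count filter, with the replicate block, in the L1 libraries alone, without WT 1 and without KI/+ 3. In KI/KI against WT, Olig2 was called without WT 1 or KI/KI 2, Nxph1 without WT 1, without KI/KI 2 and with replicates 2 and 3 alone, and Slc6a5 without WT 1; the trend called them in 3, 2 and 1 alternatives. In KI/KI against KI/+ Olig2 was called without KI/KI 2, and in KI/+ against WT Mbp was called with replicates 2 and 3 alone (-0.55, FDR 0.0329) and Cd68 without WT 1 and with replicates 2 and 3 alone. Slc6a11 was called in KI/KI against WT in all 18 alternatives that give an adjusted p; DESeq2 gave none for it. The 144 genes called in KI/KI against WT were 41 with DESeq2, 261 without a count filter, 28 in the L1 libraries alone, 331 with replicates 2 and 3 alone, 327 without WT 1, 21 without WT 2, 27 without WT 3, 222 without KI/+ 3 and 24 without KI/KI 3. At 1355 counts in all and 3 libraries per genotype, the 95% interval of Fgfr3 in KI/KI against WT ran from 0.812 to 1.15-fold.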
